A study of Mus musculus with 10 samples.

Results

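Mesothelial cells form the thin sheet that covers the lung surface and lines the pleural cavity, and 7 genes that mark them were followed here: Msln, Upk3b, Upk1b, Lrrn4, Gpm6a, Wt1 and Rspo1. They were chosen by name, as the rows of the deposited count table whose mouse Ensembl identifiers carry these symbols in GENCODE release M21, and they are 7 of 47333 genes in the table. All 7 had enough counts to be tested, among 18024 genes. RNA came from the right middle lobe of the lung of 10 naïve, untreated mice on a C57BL/6J background, aged 12 weeks and housed with the genotypes mixed within cages. The KO group lacks Bpifb1, a gene for a secreted protein of the airway lining, and held 1 male and 4 females. The WT group held 2 males and 3 females. The study asked which genes differ when Bpifb1 is lost. How the KO allele was made is not given in the sources used here. The labels give a sex for each library, so each was read as 1 mouse. The p-values between groups judge a difference against the spread between these libraries.

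The lung mesothelium secretes lubricating fluid, takes part in repair of the pleura and, during development, gives rise to some cells of the lung mesenchyme. Its cells carry keratins like an epithelium and at the same time express factors of mesodermal origin such as Wt1. In a lobe of lung they are a small fraction of the cells and lie at its surface. In such bulk samples fewer cells of a type and less RNA per cell cannot be told apart.

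Libraries held 21357424 to 28321294 counts, with 24026 to 25135 genes detected. Bpifb1 measured 28.1 to 79.6 CPM (counts per 1000000 counts of the library) in WT and 0.217 to 1.26 CPM in KO mice, so the genotype labels and the targeted gene went together. Xist measured 273.7 to 407 CPM in 6 of 7 females and 1.78 CPM in KO replicate 5, labelled female, which had 0 counts of 4 Y-linked genes. The 3 males had 1.29 to 1.73 CPM of Xist and 2470 to 3441 Y-linked counts, so this library matches neither sex in full. It was kept as labelled and had the lowest summed level of the 7 genes, so results that rest on it are also given without it. Lung markers were abundant, with Sftpc at 15510 CPM in WT and 13790 CPM in KO mice on average.

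RefSeq promoters (GRCm38.p6) were available for 4 of the 7 genes, 5 promoters in all, and not for Msln, Upk1b and Wt1. Shown are the 250 bases before the start of Upk3b and Lrrn4, which were among the genes that moved together most closely over mice, and both promoters of Gpm6a. That of Rspo1 was searched but is not printed. Whether any motif goes with the pattern over mice was not tested. The upstream Gpm6a promoter lies outside the annotated gene that was counted, and the downstream one lies close to its start. Capitals mark GGAATG or its reverse complement CATTCC, the core that TEAD transcription factors bind, and in the downstream Gpm6a promoter TTTATA, the reverse complement of the TATA box.
Upk3b, chr5:136038246-136038495, plus strand: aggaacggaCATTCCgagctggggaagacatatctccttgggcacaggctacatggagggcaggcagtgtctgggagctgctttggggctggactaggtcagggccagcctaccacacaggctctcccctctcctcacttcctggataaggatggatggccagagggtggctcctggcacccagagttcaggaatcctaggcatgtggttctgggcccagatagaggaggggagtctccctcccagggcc
Lrrn4, chr2:132880863-132881112, minus strand: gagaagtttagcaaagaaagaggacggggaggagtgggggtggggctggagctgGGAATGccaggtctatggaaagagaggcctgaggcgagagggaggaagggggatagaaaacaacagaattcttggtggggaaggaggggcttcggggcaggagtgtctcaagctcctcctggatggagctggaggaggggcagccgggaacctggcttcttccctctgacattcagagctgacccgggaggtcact
Gpm6a upstream, chr8:54779184-54779433, plus strand: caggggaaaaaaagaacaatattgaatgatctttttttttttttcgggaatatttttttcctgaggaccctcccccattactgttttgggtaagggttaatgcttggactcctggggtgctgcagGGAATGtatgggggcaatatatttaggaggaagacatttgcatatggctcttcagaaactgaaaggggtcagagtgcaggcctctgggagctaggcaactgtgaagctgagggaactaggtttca
Gpm6a downstream, chr8:54954478-54954727, plus strand: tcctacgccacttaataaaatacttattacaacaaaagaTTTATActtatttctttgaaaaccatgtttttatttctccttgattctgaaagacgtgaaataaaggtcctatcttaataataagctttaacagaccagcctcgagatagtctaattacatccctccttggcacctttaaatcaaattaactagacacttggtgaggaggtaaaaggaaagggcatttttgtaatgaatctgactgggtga

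The motif started 241 bases before the start in Upk3b (on the opposite strand), 196 bases before it in Lrrn4 and 125 bases before it in the upstream Gpm6a promoter. The same window of Rspo1 and of the downstream Gpm6a promoter, the one at the counted gene, held no match. Of 32851 promoters of the same length in the table, 12.6% held it on either strand. Of 5 other motifs, the WT1 site GCGTGGG, the GC-rich site GCGGGGGCG, the GC box GGGCGG and the CCAAT box were found in 0 of the 5 promoters, against 4.3%, 2.57%, 32.7% and 33.8% of all promoters. The TATA box TATAAA was found in the downstream Gpm6a promoter, against 12.4%. The GC-rich site and the GC box can overlap, and all motifs were read on both strands. These matches describe letters in a window and say nothing of binding.

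The surface proteins were read first. Msln (ENSMUSG00000063011; GRCm38 chromosome 17, 25748613 to 25754378, minus strand) encodes mesothelin, a membrane-anchored protein that binds the mucin Muc16. It measured 69.6, 46.1, 66.1, 56.2 and 59.4 CPM in WT replicates 1 to 5 and 52.8, 45.9, 64.8, 52.5 and 46.0 CPM in KO replicates 1 to 5. WT replicates 1 and 3 were highest, KO replicates 2 and 5 and WT replicate 2 lowest, and the genotypes overlapped. WT mice averaged 59.5 ± 9.17 CPM and KO mice 52.4 ± 7.68 CPM (SD, n = 5 each). On the log2 scale the KO level less the WT level was -0.20 (SE 0.13), within the spread between mice (edgeR adjusted p 0.4450), and it was -0.13 without WT replicate 1.

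Upk3b (ENSMUSG00000042985; chromosome 5, 136038496 to 136046487, plus strand) encodes a uroplakin, a membrane protein of a family first known from the bladder lining. It measured 93.1, 67.0, 85.9, 63.5 and 82.8 CPM in WT replicates 1 to 5 and 69.2, 60.2, 82.8, 81.9 and 57.6 CPM in KO replicates 1 to 5. WT replicate 1 was again highest and KO replicates 5 and 2 were lowest. The log2 fold change was -0.17 (SE 0.14, edgeR adjusted p 0.5833), with 3 of 5 KO mice below the WT mean. It was -0.108 without KO replicate 5, -0.085 without WT replicate 1 and -0.26 without WT replicate 4.

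Upk1b (ENSMUSG00000049436; chromosome 16, 38773184 to 38800328, minus strand) encodes a uroplakin of the tetraspanin type. It measured 48.6, 39.4, 44.1, 48.5 and 52.1 CPM in WT replicates 1 to 5 and 36.7, 39.7, 43.3, 43.6 and 35.9 CPM in KO replicates 1 to 5. All 5 KO mice lay below the WT mean of 46.5 ± 4.89 CPM, with a KO mean of 39.8 ± 3.59 CPM (SD, n = 5 each), but WT replicate 2 fell within the KO range. The log2 fold change was -0.265 (SE 0.06, 95% confidence interval -0.40 to -0.13). Its edgeR p was 0.0010 before adjustment and 0.1254 after it, so Upk1b did not pass, and it ranked 144 of the tested genes by p. By the DESeq2 Wald test on the same genes it passed, with an adjusted p of 0.0277, and over all 18 alternative settings its adjusted p ran from 0.0277 to 0.3309. Without KO replicate 5 the edgeR log2 fold change was -0.22 (adjusted p 0.2230).

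Lrrn4 (ENSMUSG00000043110; chromosome 2, 132868305 to 132880891, minus strand) encodes a membrane protein with leucine-rich repeats. It measured 23.6, 12.5, 25.4, 15.6 and 24.3 CPM in WT replicates 1 to 5 and 20.0, 14.6, 20.9, 19.4 and 14.4 CPM in KO replicates 1 to 5. The WT mice split into 3 high and 2 low values, and all KO mice lay between the lowest and the highest WT mouse. Of the 7 genes it varied most, with a highest value 2.03 times the lowest, and its log2 fold change of -0.19 had the widest interval (-0.70 to 0.32, edgeR adjusted p 0.7105). Single mice moved it from -0.311 (without WT replicate 2) to -0.088 (without WT replicate 3), and it was -0.119 and -0.095 without WT replicates 1 and 5 and -0.293 and -0.295 without WT replicate 4 and KO replicate 1.

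Gpm6a (ENSMUSG00000031517; chromosome 8, 54954843 to 55060871, plus strand) encodes a proteolipid-family membrane glycoprotein that is also known from neurons. It measured 44.5, 37.0, 53.6, 40.5 and 50.2 CPM in WT replicates 1 to 5 and 60.7, 44.2, 41.3, 46.0 and 36.6 CPM in KO replicates 1 to 5. KO replicate 1, the one KO male, was highest of all mice. Gpm6a was the 1 gene of the 7 with a log2 fold change above 0, 0.05 (SE 0.13, edgeR adjusted p 0.8839), and the sign turned without KO replicate 1 (-0.10) or without WT replicate 2 (-0.04).

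Wt1 (ENSMUSG00000016458; chromosome 2, 105126529 to 105173616, plus strand) encodes a zinc finger transcription factor that marks mesothelium and its progenitors. Its level was low, from 72 to 137 counts per mouse, so counting alone gives an SD of about 10.4% of a value. It measured 4.22, 3.43, 5.50, 3.26 and 3.76 CPM in WT replicates 1 to 5 and 4.13, 3.10, 4.04, 3.34 and 3.44 CPM in KO replicates 1 to 5. WT replicate 3 stood highest, and the other mice of both genotypes overlapped. The log2 fold change was -0.11 (SE 0.14, edgeR adjusted p 0.7346), and it was -0.02 and -0.05 without WT replicates 3 and 1 and -0.19 and -0.17 without WT replicates 2 and 4.

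Rspo1 (ENSMUSG00000028871; chromosome 4, 124986430 to 125009099, plus strand) encodes the secreted ligand of the group, which binds Lgr receptors and raises Wnt signalling. It measured 26.8, 23.3, 27.5, 24.7 and 25.7 CPM in WT replicates 1 to 5 and 26.7, 20.1, 23.8, 27.2 and 18.1 CPM in KO replicates 1 to 5. WT mice were close together (25.6 ± 1.66 CPM, SD, n = 5), while KO mice ranged from below to within the WT values (23.2 ± 4.03 CPM, SD, n = 5). The log2 fold change was -0.13 (SE 0.11, edgeR adjusted p 0.5637). It was -0.06 without KO replicate 5, the lowest mouse, and -0.209 and -0.195 without KO replicates 1 and 4.

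**Figure D1:**
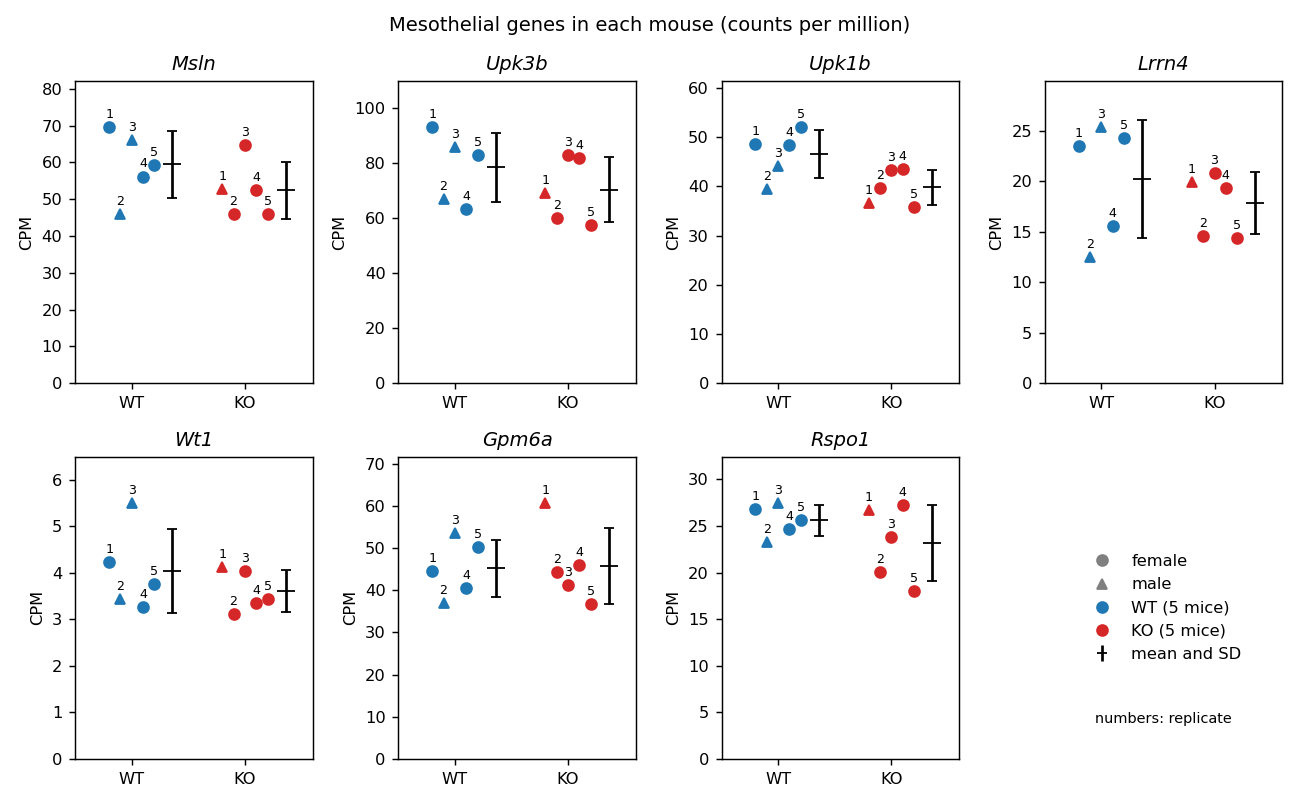
CPM (vertical axis, from 0, with its own scale per gene) of each of the 7 genes in 5 WT and 5 KO mice; points are mice, numbered by replicate, triangles are males, and the black marks are the mean and SD. In every panel the genotypes overlap, and Upk1b is the gene in which all KO mice lie below the WT mean.

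Between genotypes, then, 0 of the 7 genes passed an adjusted p under 0.05 in edgeR, where 0.0222% of the 18024 genes did (0.0166% lower and 0.00555% higher in KO). By DESeq2 1 of 7 passed, where 1.92% of all genes did, and by limma-voom 0 of 7, where 0.0111% did. At an unadjusted p under 0.05 stood 1 of 7, Upk1b, where 17% of all genes did (8.04% lower in KO), and 0 of 7 had CPM ranges that did not overlap, where 1.88% of all genes had (0.921% lower in KO). The log2 fold change was below 0 for 6 of the 7, against 50.7% of all genes, with a median of -0.169 against -0.003 over all genes. Lists of other cell types lay on both sides of 0: the median log2 fold change was -0.149 over 5 alveolar type 2 markers (3 at an unadjusted p under 0.05, all lower in KO), -0.125 over 5 club cell markers (5 below 0), -0.125 over 5 alveolar type 1 markers and 0.096 over 5 fibroblast markers (5 above 0). Since the 7 genes varied together over mice, their signs are not 7 separate observations. The 95% confidence intervals reached from 0.137 (Upk1b) to 0.511 (Lrrn4) to either side of the estimate, and those of the 6 genes other than Upk1b included 0. Without KO replicate 5, 6 of 7 remained below 0 with a median of -0.109, and without WT replicate 1 the median was -0.095, so single mice moved it by more than 1.5 times. Without KO replicate 5 the log2 fold changes of Msln, Lrrn4, Wt1 and Gpm6a were -0.155, -0.128, -0.109 and 0.105.

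**Figure D2:**
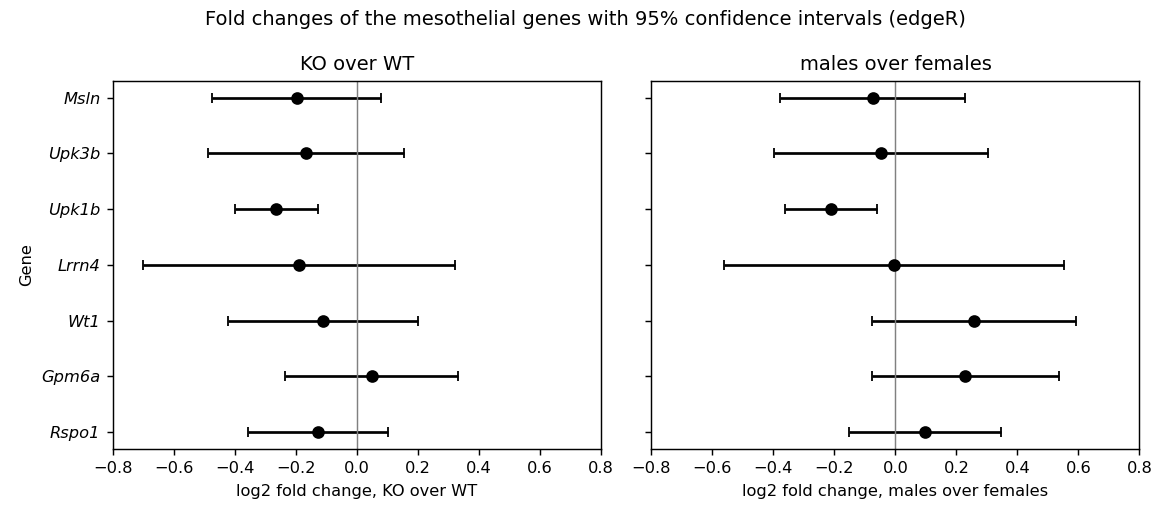
Log2 fold changes (horizontal axis) of the 7 genes for KO over WT and for males over females, with 95% confidence intervals from the edgeR fit of all 10 mice. Most intervals include 0; Upk1b lies below 0 in both panels without passing adjustment over all genes.

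Males and females did not differ detectably in these genes either. None of the 7 passed in edgeR (0 of 7, where 0.583% of all genes did), 1 stood at an unadjusted p under 0.05 (where 15.1% did), and 0 passed by DESeq2 or limma-voom, where 2.42% and 0.549% of all genes did. That 1 was Upk1b, lower in the 3 males (40.1 CPM on average) than in the 7 mice labelled female (44.5 CPM), a log2 difference of -0.21 (SE 0.07) that did not pass (edgeR adjusted p 0.1796). Wt1 and Gpm6a had the largest positive values, 0.26 (SE 0.15, edgeR adjusted p 0.4695) and 0.23 (SE 0.14, edgeR adjusted p 0.4779). The signs for Msln, Upk3b, Lrrn4 and Rspo1 turned in at least 1 alternative, and whether sex changes the genotype difference was not tested, since a single KO mouse was male. Without KO replicate 5 also 0 of 7 passed between sexes.

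A pattern also ran across mice within each genotype. Summed over the 7 genes, the level was 310.4, 228.8, 308.1, 252.2 and 298.2 CPM in WT replicates 1 to 5 and 270.1, 227.8, 280.9, 273.9 and 212 CPM in KO replicates 1 to 5. The same few mice were low for most genes. KO replicate 5 was among the 3 lowest mice for 6 of the 7 genes, and KO replicate 2 and WT replicate 2 for 5 of 7 each. WT replicates 1 and 3 were among the 3 highest for 6 of 7 each. The low mice thus came from both genotypes and did not share a labelled sex. The 3 highest sums were all in WT mice (298.2 to 310.4 CPM), above the highest KO sum of 280.9 CPM.

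**Figure D3:**
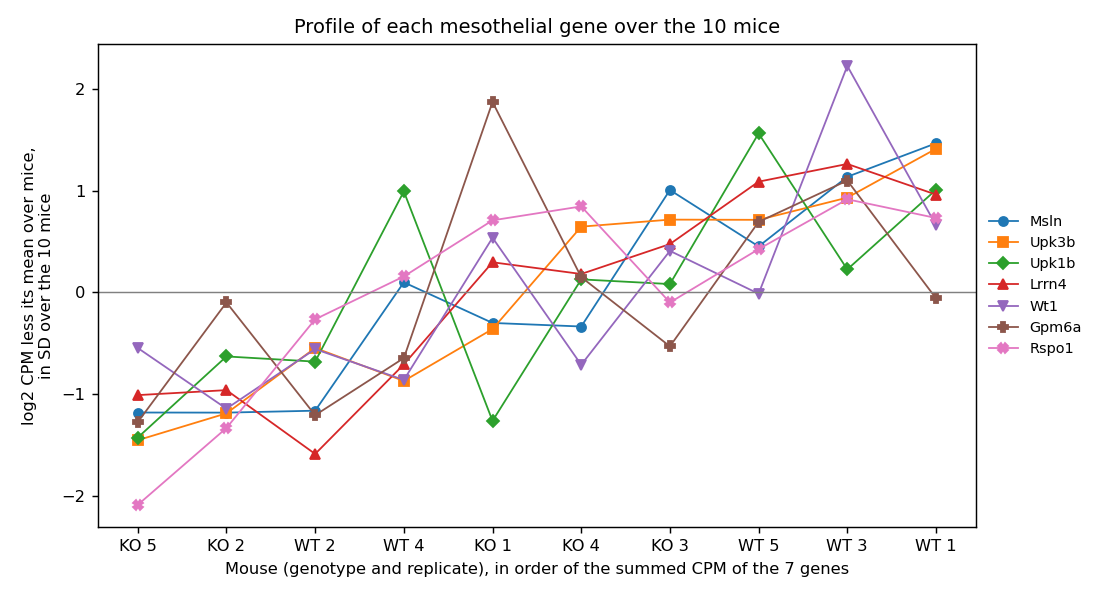
Log2 CPM of each gene, less its mean and in units of its SD over the 10 mice (vertical axis), with the mice in order of the summed CPM of the 7 genes (horizontal axis), an order that these genes themselves set. Most genes lie below 0 in KO 5, KO 2 and WT 2 and above 0 in WT 3, while Gpm6a peaks in KO 1, where Upk1b is low.

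Pearson's r of log2 CPM between the genes over the 10 mice was above 0 for all 21 pairs, with a median of 0.65 and a range from 0.105 to 0.86. After Benjamini-Hochberg adjustment over the 21 pairs 6 pairs passed by permutation of r and 10 by permutation of Spearman's rho. Msln and Lrrn4 had r 0.86 (permutation p 0.0023, adjusted 0.0211; rho 0.85, permutation p 0.0029, adjusted 0.0218), and r was 0.80 without the 2 mice farthest from the median of Msln. In each pair these 2 mice were chosen by 1 gene alone. It was the earlier in the order Msln, Upk3b, Upk1b, Lrrn4, Wt1, Gpm6a, Rspo1, so mice extreme for the other gene could stay. Upk3b and Lrrn4 had r 0.86 (permutation p 0.0034, adjusted 0.0211; rho 0.85, permutation p 0.0031, adjusted 0.0218), and 0.81 without 2 mice. Msln and Upk3b likewise had r 0.86 (permutation p 0.0028, adjusted 0.0211; rho 0.90, permutation p 7.7e-04, adjusted 0.0162), and 0.76 without 2 mice.

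Those 3 surface protein genes were joined by the transcription factor and the ligand. Wt1 passed with Lrrn4 (r 0.75, permutation p 0.0081, adjusted 0.0341; rho 0.73, permutation p 0.0200, adjusted 0.0421), with r 0.81 without WT replicate 2 and KO replicate 5, the farthest for Lrrn4. WT replicate 3, the highest mouse for both genes, was not left out there. Wt1 also passed with Msln (r 0.73, permutation p 0.0128, adjusted 0.0450; rho 0.76, permutation p 0.0142, adjusted 0.0402), with 0.60 without 2 mice. Rspo1 passed with Upk3b (r 0.78, permutation p 0.0040, adjusted 0.0211; rho 0.76, permutation p 0.0148, adjusted 0.0402), but r was 0.51 without KO replicates 5 and 2, so this relation rests in part on those mice.

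Upk1b was in none of the 6 pairs that passed by r or the 10 by rho. Gpm6a was in none by r, but passed by rho with Rspo1 (r 0.64, permutation p 0.0451, adjusted 0.0789; rho 0.78, permutation p 0.0105, adjusted 0.0402) and with Lrrn4 (r 0.69, permutation p 0.0291, adjusted 0.0675; rho 0.74, permutation p 0.0168, adjusted 0.0402). Without the 2 mice farthest from the median those r were 0.49 and 0.44. Upk1b correlated least with Gpm6a (r 0.105, permutation p 0.7680, adjusted 0.7680; rho 0.33, permutation p 0.3465, adjusted 0.3638) and with Wt1 (r 0.16, permutation p 0.6714, adjusted 0.7050; rho 0.18, permutation p 0.6305, adjusted 0.6305). Without KO replicate 5 and WT replicate 5 the r of Upk1b and Gpm6a was -0.35. With values taken less the mean of their genotype, the median over the 21 pairs was 0.605, with 20 above 0. With fitted genotype and sex effects taken out it was 0.75, with 21 above 0. Without KO replicate 5 the median was 0.61. With the 2 farthest mice left out of each pair it was 0.505, with 20 of 21 above 0.

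**Figure D4:**
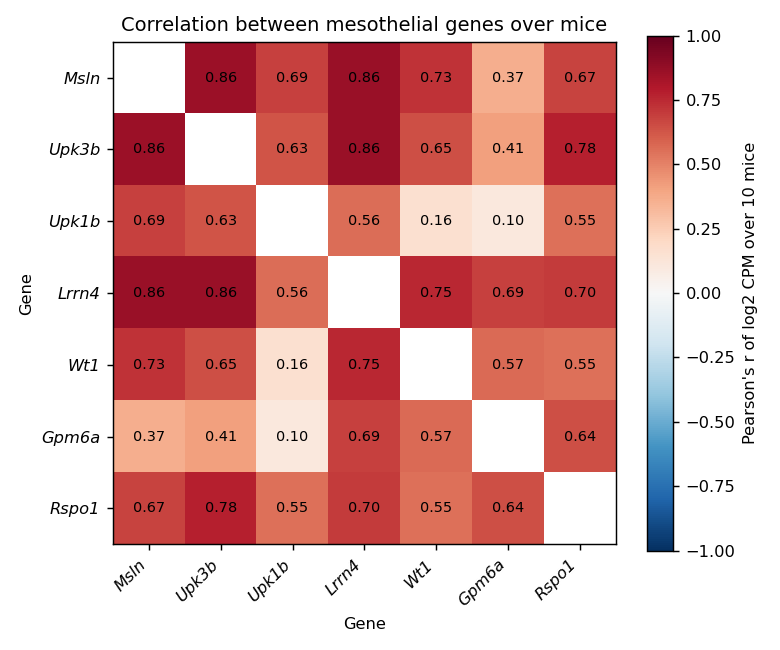
Pearson's r of log2 CPM over the 10 mice for each pair of the 7 genes (rows and columns), from blue at -1 to red at 1. Msln, Upk3b and Lrrn4 share the highest values, 0.86 for each pair, and Upk1b with Gpm6a and Wt1 the lowest.

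The background for these values is the r of each gene with every tested gene. Of all tested genes 4.67% had r of at least 0.5 with Lrrn4, and 6 of its 6 fellow genes did. For Msln the share was 6.52% and 5 of 6 genes reached it, for Upk3b 8.77% and 5 of 6, for Wt1 2.57% and 5 of 6, and for Rspo1 8.28% and 6 of 6. Gpm6a (9.38% and 3 of 6) and Upk1b (14.2% and 4 of 6) were the 2 genes with the largest background share. All 7 genes were read from the same libraries and scaled by the same factors, and their median r with all tested genes lay between -0.02 and 0.01. Ranked by r with Msln among all tested genes, Lrrn4 came at 6 and Upk3b at 7. Lrrn4 in turn had Msln at 6 and Upk3b at 7. The other members ranked lower. With Msln, Wt1 came at 93, Upk1b at 164, Rspo1 at 197 and Gpm6a at 2774. With Lrrn4, Wt1 came at 52, Rspo1 at 109, Gpm6a at 138 and Upk1b at 484.

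The spread itself was moderate. The coefficient of variation over the 10 mice was 24.1% for Lrrn4, 18.5% for Wt1, 16.6% for Gpm6a, 16.5% for Upk3b, 15.7% for Msln, 13% for Rspo1 and 12.5% for Upk1b. Their median was 16.5%, against 9.1% for the 10438 tested genes whose mean CPM lies within the range of these 7. Counting alone would give from 2.36% for Upk3b to 10.4% for Wt1.

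Expressed per length of annotated exon, Upk3b had 21.1 ± 3.49, Upk1b 20.7 ± 2.57, Msln 18.2 ± 2.87, Gpm6a 14.2 ± 2.35, Rspo1 12.6 ± 1.64, Lrrn4 5.13 ± 1.23 and Wt1 0.617 ± 0.114 CPM per kb (SD over 10 mice). The order of neighbours was not firm at the top: Upk3b exceeded Upk1b in 6 of 10 mice, Upk1b exceeded Msln in 8, Msln exceeded Gpm6a in 9 and Gpm6a exceeded Rspo1 in 8. Rspo1 exceeded Lrrn4, and Lrrn4 exceeded Wt1, in all 10 mice with ranges that did not overlap. The lengths pool every annotated exon and are not those of the transcripts in use. An annotated antisense gene, Gm12930, overlaps Rspo1 with 0 to 2 counts per mouse, and 5 further annotated genes that overlap Gpm6a on its own strand were not used here.

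The genes most like this group were ranked by the median, over the 7 genes, of Pearson's r of log2 CPM across the 10 mice, among 16274 other genes whose mean was 1 CPM or more. Dph3 led with a median r of 0.81, followed by Ccn5 and Nars2 (0.79 each), Rtn2 (0.77), Nkain4, C2 and Chsy3 (0.75 each), Slc16a1 (0.74), Muc16 (0.73) and Serpine2 (0.73). The value at the 99th percentile was 0.58 and the median over all of them -0.001. None of these 10 genes passed between genotypes in edgeR (0 of 10, where 0.0222% of all genes did). Ccn5 (log2 fold change -0.21, edgeR adjusted p 0.2552), Rtn2 (-0.18, adjusted p 0.2387) and Nkain4 (-0.21, adjusted p 0.2457) stood at an unadjusted p under 0.05. Over all genes 17% stood at that p (8.04% lower in KO). The 10 were picked for following the 7 genes over these same mice, so their fold changes are not separate evidence.

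A further 15 genes known from mesothelium, several of them shared with other epithelia, were read beside the 7. Of 14 tested, 0 passed in either direction, 4 stood at an unadjusted p under 0.05, all lower in KO, and 12 had a log2 fold change below 0, with a median of -0.15. Over all genes 17% stood at that p (8.04% lower in KO) and 50.7% were below 0. The 3 most abundant were the surface receptor Bcam (738 ± 23.9 CPM in WT, 712 ± 34.4 CPM in KO; log2 fold change -0.05, edgeR adjusted p 0.6724), the keratin Krt7 (378 ± 36.7 and 349 ± 18.9 CPM; -0.12, edgeR adjusted p 0.4013) and the keratin Krt8 (228 ± 28.7 and 211 ± 12.6 CPM; -0.09, edgeR adjusted p 0.5704), each SD with n = 5. Named after their values were seen, the 4 at an unadjusted p under 0.05 were Krt18 (-0.22), the claudin Cldn15 (-0.30), Nkain4 (-0.21) and Krt19 (-0.16), with edgeR adjusted p from 0.1933 to 0.2457.

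Of the 14 genes, 6 ranked within the first 100 of the 16274 by likeness: Nkain4 at 5, Muc16 at 9, the basonuclin Bnc1 at 13, the retinoic acid synthesis gene Aldh1a2 at 20, Cldn15 at 29 and Pkhd1l1 at 98, the last 4 named after their values were seen. The keratins, which alveolar and airway epithelia also express, ranked at 2487 (Krt18), 3926 (Krt7), 4980 (Krt19) and 7418 (Krt8). Of the other 4, also named after their values were seen apart from Bcam, Ildr2 ranked 188, Bcam 417 and Pdpn 694, and Plxna4 came last at 13374 with a median r of -0.28 and a log2 fold change of 0.24 (edgeR adjusted p 0.2986). Calb2, a mesothelial marker in human pathology, had 0 to 4 counts per mouse and was not tested.

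The other uroplakins were read at far lower levels than Upk3b and Upk1b. Upk1a measured 1.93 ± 0.531 CPM in WT and 1.596 ± 0.441 CPM in KO mice, Upk2 1.26 ± 0.144 and 1.06 ± 0.140 CPM, and Upk3a 0.558 ± 0.216 and 0.397 ± 0.184 CPM (SD, n = 5 each), where 3 counts equal 0.104 to 0.143 CPM. Upk3bl had 0 to 2 counts. Of the 3 tested, 0 passed, and the lowest edgeR adjusted p was 0.4748. The bladder markers Krt20 and Psca had 0 to 5 and 0 to 3 counts.

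Among sequence relatives of the members, 4 of 6 were tested and 0 passed. Gpm6b, the paralog of Gpm6a, measured 63.0 ± 8.28 CPM in WT and 69.9 ± 7.18 CPM in the KO group (SD, n = 5 each; log2 fold change 0.16, edgeR adjusted p 0.4090). Lrrn3 measured 11.6 ± 1.17 and 11.8 ± 0.893 CPM and Lrrn2 3.04 ± 0.783 and 3.70 ± 0.428 CPM (SD, n = 5 each; edgeR adjusted p 0.9875 and 0.4415). Mslnl, the relative of Msln, had 0 to 4 counts.

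Rspo1 acts on Wnt signalling, so 14 genes of the R-spondin family, its receptors and Wnt targets were read with it. All 14 were tested, 0 passed, 10 had a log2 fold change above 0 and 4 below, with a median of 0.03. Of all tested genes 50.7% were below 0. Rspo2 was the 1 gene of the list whose CPM ranges did not overlap, at 0.490 ± 0.0559 CPM in WT and 0.342 ± 0.0346 CPM in the KO group (SD, n = 5 each; log2 fold change -0.525, edgeR adjusted p 0.3316), but it rested on 7 to 16 counts per mouse. Over all genes 1.88% had ranges that did not overlap (0.921% lower in KO). The Wnt feedback genes Nkd1 (log2 fold change -0.02, edgeR adjusted p 0.8903) and Axin2 (0.05, edgeR adjusted p 0.6533) and the transcription factor Tcf7 (0.01, edgeR adjusted p 0.9488) were the most abundant. Sp5, named after its value was seen, had the lowest p of the list (log2 fold change -0.33, edgeR adjusted p 0.1508). By likeness to the 7 genes, the list spread widely among the 16274 ranked genes. Rspo4 ranked highest of it at 481 (median r 0.50), Axin2 ranked 4785, and Rspo3 ranked lowest of it at 15331 (median r -0.45). Rspo3 and Rspo4 were named after their values were seen.

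Of 5 transcription factors of mesothelial and related mesodermal lineages 0 passed. At an unadjusted p under 0.05 stood 1, Tcf21, lower in KO, where 17% of all genes did (8.04% lower in KO). Tcf21, a factor that lung fibroblasts also express, measured 128 ± 10.7 CPM in WT and 113 ± 10.8 CPM in the KO group (SD, n = 5 each; log2 fold change -0.17, edgeR adjusted p 0.2696). Gata6 (-0.095, edgeR adjusted p 0.3751) and Tbx20 (0.34, edgeR adjusted p 0.6390) did not pass either.

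Markers of other tissue in the pieces were set beside the low mice. The summed CPM of 5 cardiac muscle markers, which can come from pulmonary veins, ran from 307.1 to 880.2 in WT and 502.4 to 937.1 in KO mice, and was 785.1, 546 and 478.8 in the low KO replicates 5 and 2 and WT replicate 2. That of 5 adipocyte markers ran from 57.2 to 284.9 in WT and 111.8 to 252.7 in KO mice, and was 252.7, 118.7 and 106.5 in those 3 mice. The low mice were thus spread through these ranges. For 5 alveolar type 1 markers, WT replicate 2 had the highest sum (5073) and KO replicates 2 and 5 the lowest (3911 and 3991), and for 5 fibroblast markers WT replicate 2 had the lowest (1361) and KO replicate 5 the highest (1778). By total counts the 3 mice ranked 7, 9 and 3 of 10. Smooth muscle markers summed to 731.7 to 1022 CPM in WT and 731.1 to 917.2 CPM in KO mice, and skeletal muscle markers to 9.47 to 27.1 and 15.3 to 22.4 CPM, with Myh4 at 0 to 1 and Acta1 at 0 to 6 counts. The part of these tissues and of depth in the pattern over mice was not tested.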

How the data were processed

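Single-end RNA-seq reads of 50 bases came from stranded mRNA libraries (KAPA kit), per the labels' protocols. The authors deposited 1 table of estimated counts per gene, not scaled between libraries. FastQC, MultiQC, STAR 2.6.0, Salmon 0.9.1 and the builds mm10 and GRCm38 are named per the submitters' processing notes; their settings and whether strand was used are not given in the sources used here. Of non-zero deposited counts 30.1% lay more than 0.01 from a whole number, and all were rounded. Identifiers were looked up in GENCODE M21 for symbols, positions and exon lengths (47281 matched, 52 not). In all, 0 columns lacked a sample. The floor of 3 counts covers counting error alone, because no molecular identifiers mark which reads come from 1 molecule.

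Genes were kept by filterByExpr (minimum count 10, minimum total count 15) and fitted over all 18024 in edgeR 4.0.16 (R 4.3.3; TMM, robust quasi-likelihood, genotype plus sex), with p-values adjusted by Benjamini and Hochberg. SE is the absolute log2 fold change over the square root of F. CPM uses TMM-scaled totals, and log2 CPM a prior count of 2. Correlations used 100000 permutations. All tests were two-sided. Alternatives included DESeq2 1.42.0 and limma 3.58.1. Since all members passed the filter, no exact test of single values was needed. The fits were tested on simulated data. No pair of libraries agreed within sampling noise (0 pairs). Members, gene lists and motifs were chosen with earlier results of these data known. Named were the members, Bpifb1, Xist and Y-linked genes, list genes that passed or had ranges that did not overlap and otherwise the 3 most abundant per list, and the 10 genes most like the members; others were named after their values were seen.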

Additional observations from a re-analysis of the deposited data

Results flagged for a closer look

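In sets of 5 mice of a genotype, the most extreme mouse was compared with its nearest neighbour by Dixon's test for the 7 genes, their sum and 12 marker lists. Of 40 sets 3 stood out, where chance flags about 1 in 20, or 2 sets. None of the 3 was a set of the 7 mesothelial genes.

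The summed CPM of the urothelium markers was 5.15 in WT replicate 2, where the other WT mice had 3.32 to 3.78. The smooth muscle markers summed to 1022 CPM in WT replicate 5, where the rest of that group had 731.7 to 795. The club cell markers summed to 31710 CPM in KO replicate 4, where the rest of that group had 28150 to 28630.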

How the results depend on the processing

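Of the 7 genes 0 passed between genotypes in 17 of 18 alternatives, and 1 (Upk1b, log2 fold change -0.26, adjusted p 0.0277) by the DESeq2 Wald test. Between sexes 0 passed in all 17 alternatives. In the fit without KO replicate 1 this cannot tell the 7 genes from the rest, because 0 genes of the whole table passed there. The fold change of Gpm6a between genotypes turned to -0.104 in females alone and ran from -0.103 to 0.134 without single mice; the other 6 genes stayed below 0 in the 18 alternatives. Between sexes, without single mice, Msln ran from -0.186 to 0.058, Upk3b from -0.133 to 0.039, Lrrn4 from -0.211 to 0.237 and Rspo1 from -0.016 to 0.184, and Lrrn4 was 0.001 with DESeq2 size factors and 0.03 with no genotype covariate. The count of 4 genes called between genotypes over the whole table became 50 with no filter, 346 by DESeq2, 2 by limma-voom and 2 to 18 without single mice (18 without WT replicate 3; 2 without WT replicate 1 or KO replicates 2, 4 or 5). The 105 called between sexes became 197 with no filter, 41 with no genotype covariate, 436 by DESeq2 and 0 to 195 without single mice (0 without KO replicate 1, with 1919 genes at an unadjusted p under 0.05; 195 without WT replicate 4; 43 and 46 without WT and KO replicate 2). The cause was not tested. The median correlation of 0.65 ran from 0.605 to 0.753 over 15 alternatives, and was 0.505 with the 2 farthest mice left out of each pair. No alternative moved the median of all genes by over 0.1. No paired analysis was possible because the labels give no replicate number that the genotypes share.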
